A study of Mus musculus with 14 samples.

Results

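The genes described here are the 10 kinases and scaffolds that act first after an antigen receptor is engaged. They are the kinases Zap70, Syk, Lck, Fyn and Lyn, the membrane scaffolds Lat and Lat2, the phospholipases Plcg1 and Plcg2, and the cytosolic scaffold Lcp2. They were taken by symbol from 2 tables of read counts that each list 50508 mouse genes, and all 10 members were found in both tables. All 10 also passed the filter on low counts in each table.

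When an antigen receptor binds, a Src-family kinase phosphorylates tyrosine motifs (ITAMs) on the receptor's signalling chains. A kinase of the Syk family docks there and phosphorylates a membrane scaffold, which gathers the SLP-76 scaffold, encoded by Lcp2, and a phospholipase C gamma. The phospholipase makes the second messengers that release calcium and switch on protein kinase C and Ras. Conventional T cells mainly run this relay with Lck, Zap70, Lat and Plcg1. B cells and myeloid cells rely more on the paralogues Lyn, Syk, Lat2 (also called NTAL or LAB) and Plcg2, which serve the B cell receptor, Fc receptors and receptors paired with FcRγ or DAP12.

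The study concerned killer cells of the innate-like αβ T cell kind, called ILTCk, and their progenitors in the thymus, called ILTCkP. Bulk RNA sequencing covered 5 groups of 2 libraries each. ILTCkP and CD8 single-positive thymocytes (CD8SP) came from the thymus of C57BL/6 mice, and the protocol describes the progenitors as low or negative for CD4 and CD8α and not binding a loaded CD1d tetramer. NK1.1+ ILTCk, the NK1.1- ILTCk, and conventional T cells with PD-1 (PD1+ Tconv) came from mice labelled retrogenic, a term for mice rebuilt from stem cells that carry an introduced T cell receptor. The sources used here do not name the receptor, the age of the mice or any pooling of animals. Per the labels' protocols, NK1.1+ ILTCk and PD1+ Tconv were sorted from tumours as CD45+ TCRγδ- TCRβ+ CD4- CD8α+ cells, the ILTCk being PD-1- NK1.1+ and the Tconv PD-1+ NK1.1-. For NK1.1- ILTCk the gate is not stated in these sources. The labels' cell type field calls both ILTCk groups progenitors while their titles call them ILTCk, and the titles were followed. The design text calls the libraries of a group biological replicates but ties none to an animal, so p-values measure the spread between these libraries.

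The start regions of paralogue pairs follow, since their ratios are compared between groups, for the pairs with a RefSeq entry for each partner. Each sequence runs from 250 bases before to 50 bases after a transcription start on GRCm38.p6, and for Zap70 and Syk, which have several starts, the one nearest the gene's own start is given. Capitals mark the letters CAGGTG (an E-box) or GAGGAA (an ETS core of the PU.1 type) read on either strand, so that CACCTG and TTCCTC are the same motifs on the other strand.
Plcg2 promoter, chr8:117498025-117498324, plus strand: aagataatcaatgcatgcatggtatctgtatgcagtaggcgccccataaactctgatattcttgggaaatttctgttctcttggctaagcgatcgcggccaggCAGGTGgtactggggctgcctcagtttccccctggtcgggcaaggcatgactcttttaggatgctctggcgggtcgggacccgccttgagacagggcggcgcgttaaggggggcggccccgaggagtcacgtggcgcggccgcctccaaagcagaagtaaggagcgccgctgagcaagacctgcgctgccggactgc
Plcg1 promoter, chr2:160731060-160731359, plus strand: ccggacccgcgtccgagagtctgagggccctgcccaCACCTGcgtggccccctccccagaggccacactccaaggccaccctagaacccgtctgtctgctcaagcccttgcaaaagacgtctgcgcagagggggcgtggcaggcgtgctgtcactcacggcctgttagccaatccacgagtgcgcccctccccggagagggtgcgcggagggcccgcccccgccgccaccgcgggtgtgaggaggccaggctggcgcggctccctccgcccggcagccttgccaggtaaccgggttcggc
Syk promoter, chr13:52583187-52583486, plus strand: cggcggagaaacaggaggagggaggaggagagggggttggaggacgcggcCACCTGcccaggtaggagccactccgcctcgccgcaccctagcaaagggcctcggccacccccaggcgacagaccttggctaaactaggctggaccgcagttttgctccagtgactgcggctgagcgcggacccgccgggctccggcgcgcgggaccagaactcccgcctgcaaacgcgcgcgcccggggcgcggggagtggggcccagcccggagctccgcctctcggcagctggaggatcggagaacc
Zap70 promoter, chr1:36761548-36761847, plus strand: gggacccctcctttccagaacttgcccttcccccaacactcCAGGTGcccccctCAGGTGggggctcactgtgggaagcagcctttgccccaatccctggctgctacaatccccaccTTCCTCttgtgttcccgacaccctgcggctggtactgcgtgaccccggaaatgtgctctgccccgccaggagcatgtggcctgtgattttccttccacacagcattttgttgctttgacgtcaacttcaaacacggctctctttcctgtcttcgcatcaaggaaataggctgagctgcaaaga
These 4 sequences each held at least 1 E-box of this spelling, as did 20.2% of 32851 RefSeq mouse promoters of this length. The Zap70 sequence had 2 of them, and it alone of the 4 had a GAGGAA core, present in 28.3% of promoters. The letters TGTGGT, a RUNX motif, were in none of the 4 and in 16.8% of all promoters. The motifs did not overlap one another, and a match is a description of letters, not of a bound site. Sequences at other starts are not printed and differed in part. That of Syk at chr13:52596632-52596931 held a GAGGAA core. That of Zap70 at chr1:36764265-36764564 held a GAGGAA core and TGTGGT, while that at chr1:36778734-36779033 held neither. Of the members, 8 had an entry, and Lat2 and Lyn had none.

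Library totals ran between 16530085 and 32097301 counts. Levels are TMM-scaled CPM (counts relative to the library's total, scaled within a table), and the thymic and tumour tables were scaled and tested separately. The labels were checked on the sorted proteins' genes. Pdcd1, which encodes PD-1, averaged 1297 CPM in ILTCkP and 25.6 CPM in CD8SP, and 6.24 CPM in NK1.1+ ILTCk and 23.5 CPM in NK1.1- ILTCk against 636 CPM in PD1+ Tconv. Cd8b1 averaged 9.10 CPM in ILTCkP and 2830 CPM in CD8SP. Klrb1c, which encodes NK1.1, averaged 189 CPM in NK1.1+ ILTCk, 21.2 CPM in NK1.1- ILTCk and 20.9 CPM in PD1+ Tconv.

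The tumour libraries also held transcripts of other cells. The summed level of 14 macrophage and monocyte markers was 6806 and 18905 CPM in NK1.1+ ILTCk and 3104 and 3101 CPM in NK1.1- ILTCk, against 162 and 1085 CPM in PD1+ Tconv. All 14 markers were above 0 in each of these 6 libraries. Dendritic cell markers summed to 6641 and 4645 CPM in NK1.1+ ILTCk and 2628 and 1284 CPM in NK1.1- ILTCk, against 152 and 542 CPM in PD1+ Tconv. B cell markers summed to 72.0 and 25.1 CPM in NK1.1+ ILTCk and 46.1 and 6.98 CPM in NK1.1- ILTCk, against 41.3 and 5.35 CPM in PD1+ Tconv. Mast cell and basophil markers reached 58.0 CPM in NK1.1+ ILTCk replicate 1 and at most 1.41 CPM in the other 5 libraries. The summed level of the T cell markers ran the other way, at 2311 and 497 CPM in NK1.1+ ILTCk and 1355 and 1032 CPM in NK1.1- ILTCk, against 4430 and 2822 CPM in PD1+ Tconv. PD1+ Tconv replicate 2, the smallest library, stood apart with 263066 CPM of epithelial and gland markers, almost all of it the salivary gene Bpifa2. The same markers summed to 6835 and 6676 CPM in NK1.1+ ILTCk, 44402 and 6059 CPM in NK1.1- ILTCk and 3225 CPM in PD1+ Tconv replicate 1. In the thymus the macrophage markers summed to 28.7 and 18.7 CPM in ILTCkP and 22.8 and 18.4 CPM in CD8SP. In sorted bulk samples fewer cells of a type and less RNA per cell cannot be told apart.

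**Figure D1:**
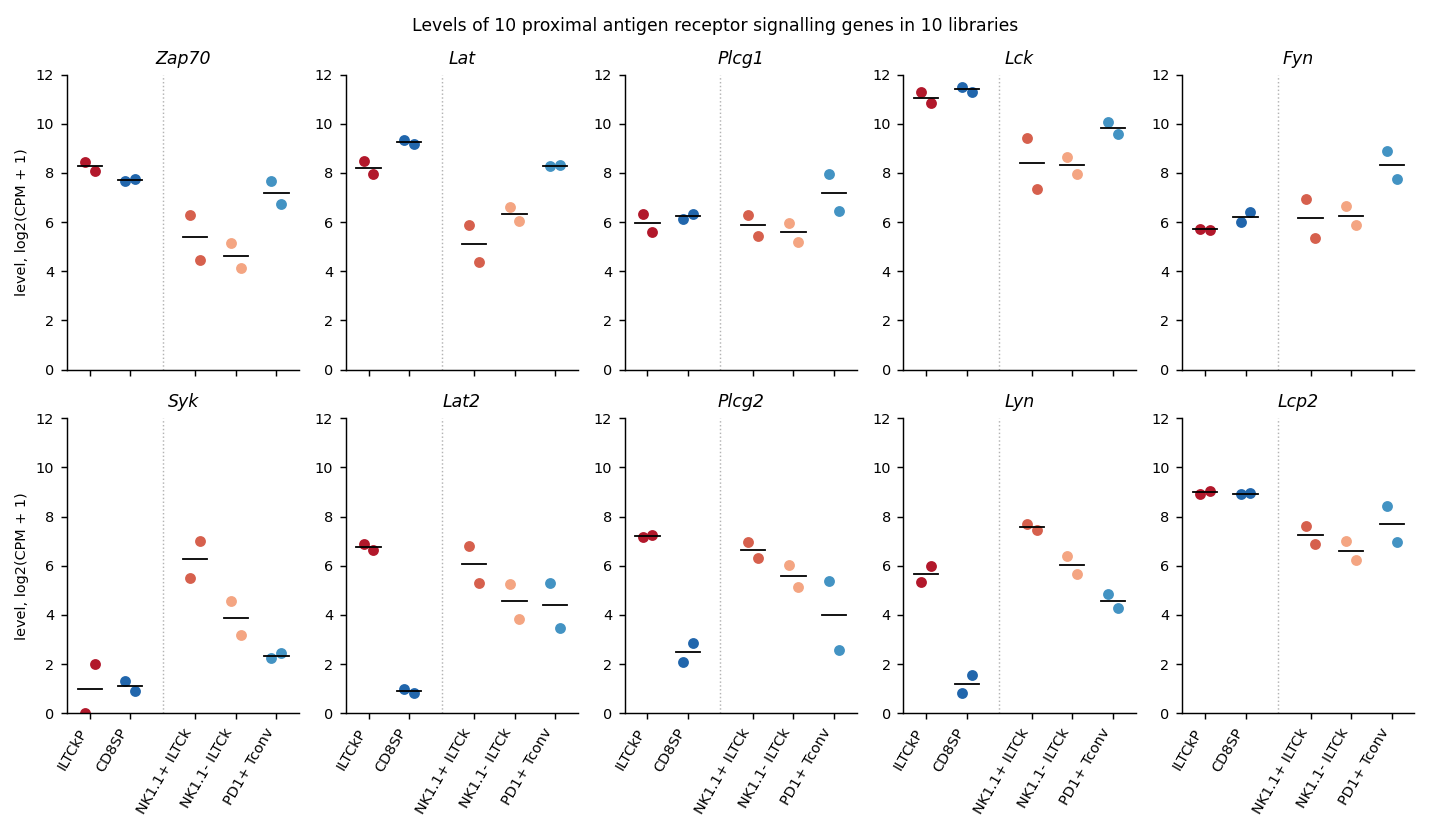
Level of each gene as log2(CPM + 1) in the 10 libraries, with 1 point per library and a bar at the mean of the plotted values; the dotted line parts the thymic from the tumour table. Lat2, Plcg2 and Lyn lie high in ILTCkP and near the floor in CD8SP, while Syk is low in all 4 thymic libraries.

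Thymic progenitors were set against CD8SP cells to compare the innate-like with the conventional line. In ILTCkP, 3 of the 4 genes of the B cell and myeloid branch rose, Lat2, Plcg2 and Lyn, and Syk did not pass the test. Among the T cell branch no gene passed edgeR: Zap70 and Lcp2 were near or above their level in CD8SP, and Lat was lower in both libraries. With edgeR's quasi-likelihood test at an adjusted p under 0.05, 3 of 10 members were called, all higher, where 3.38% of the 14634 tested genes were called higher and 1.33% lower (4.71% in all). At an unadjusted p under 0.05 stood 5 of 10 members and 22.1% of genes. DESeq2 called 4 members, the same 3 higher and Lat lower, with 8.82% of genes higher and 4.82% lower (13.6% in all). limma-voom called the same 3 members higher, with 3.76% of genes higher and 1.82% lower (5.58% in all).

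Lat2 encodes a scaffold related to LAT that is found in B cells and mast cells. It had 117 and 98.5 CPM in ILTCkP, against 0.965 and 0.759 CPM in CD8SP. The groups were far apart, and the CD8SP values rested on 28 and 24 counts. The log2 fold change was 6.96 ± 0.35 (SE; edgeR adjusted p = 0.00208), the largest among the members, from means of 108 ± 13.3 and 0.862 ± 0.146 CPM (SD, n = 2 each). Exons of Lat2 on chromosome 5 (134600022 to 134615025, minus strand, GRCm38) overlap exons of Rfc2 on the other strand, and the sources do not say whether the counting used strand. Rfc2 had 9571 and 8152 counts in ILTCkP, against 8055 and 7895 counts in CD8SP, while Lat2 had 2977 and 3213 counts in ILTCkP.

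Plcg2 encodes the phospholipase of B cell and Fc receptor signalling. It had 141 and 151 CPM in ILTCkP, against 3.31 and 6.27 CPM in CD8SP. Both ILTCkP values lay far above both CD8SP values. The log2 fold change was 4.93 ± 0.40 (SE; edgeR adjusted p = 0.00626). Plcg2 lies on chromosome 8 (117498291 to 117635142, plus strand) and shares no exon sequence with another annotated gene.

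Lyn encodes the Src-family kinase of B cells and myeloid cells. It had 40.0 and 63.1 CPM in ILTCkP, against 0.758 and 1.96 CPM in CD8SP. The ILTCkP libraries were again well above both others, with more spread between them than for Plcg2. The log2 fold change was 5.23 ± 0.59 (SE; edgeR adjusted p = 0.0116).

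Syk, the Syk-family kinase of B cells and myeloid cells, did not follow these 3 genes. It had 0 and 3.06 CPM in ILTCkP, that is 0 and 100 counts, against 1.48 and 0.854 CPM in CD8SP. The groups overlapped, and no thymic library passed 3.06 CPM. At the depth of ILTCkP replicate 1, 0 counts allows up to 0.118 CPM (3 counts). The log2 fold change was 0.40 ± 1.64 (SE; edgeR adjusted p = 0.907).

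Macrophage transcripts were at like levels in the thymic groups, as given above. Most of the summed level was Lyz2, Mrc1 was at 0 in all 4 libraries, and 4 and 3 of the 14 markers were at 0 in ILTCkP, against 5 and 6 in CD8SP. Csf1r, a receptor of macrophages, had 2.13 and 1.69 CPM in ILTCkP and 1.69 and 1.20 CPM in CD8SP. The log2 ratio of Lyn to Csf1r was 4.72 ± 0.70 in ILTCkP and -0.22 ± 1.30 in CD8SP (SD, n = 2 each). This ratio was added after the values were seen. B cell markers summed to 106 and 82.8 CPM in ILTCkP against 49.2 and 45.3 CPM in CD8SP. The part of macrophages or B cells in the Lat2, Plcg2 and Lyn values was not tested. Among those markers Cd79b had 33.5 and 47.8 CPM in ILTCkP, against 43.6 and 41.9 CPM in CD8SP, and Blk had 59.1 and 19.2 CPM in ILTCkP, against 0.310 and 0.759 CPM in CD8SP.

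No gene of the T cell branch was called by edgeR with the filter on low counts. Zap70, the T cell kinase of the Syk family, had 348 and 272 CPM in ILTCkP, against 201 and 215 CPM in CD8SP. Both ILTCkP libraries were higher, without a call (log2 fold change 0.58 ± 0.22 SE, edgeR adjusted p = 0.209). Lat had 355 and 247 CPM in ILTCkP, against 653 and 581 CPM in CD8SP. Both ILTCkP libraries were lower, at a log2 fold change of -1.04 ± 0.25 (SE; edgeR adjusted p = 0.0851), and DESeq2 called it with an adjusted p of 0.0135, as did edgeR without the filter (adjusted p = 0.00143). Lck, the kinase bound to CD4 and CD8, had 2469 and 1828 CPM in ILTCkP, against 2919 and 2513 CPM in CD8SP, and was not called (edgeR adjusted p = 0.450). Fyn, the second Src-family kinase of T cells, had 52.4 and 50.4 CPM in ILTCkP, against 63.1 and 84.8 CPM in CD8SP, also not called (edgeR adjusted p = 0.307). Values of Lck and Fyn did not overlap between the groups. Plcg1 had 80.5 and 47.4 CPM in ILTCkP, against 67.9 and 80.6 CPM in CD8SP. Lcp2 had 483 and 532 CPM in ILTCkP, against 481 and 498 CPM in CD8SP. For Plcg1 and Lcp2 the groups overlapped.

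Libraries did not overlap for 7 members, 4 higher and 3 lower in ILTCkP, where this held for 58.2% of all tested genes, 28.8% higher and 29.3% lower. The median edgeR log2 fold change of the 10 members was 0.23, against 0.01 over all genes. It was 0.23 against 0.02 with DESeq2, and -0.11 against -0.03 with limma-voom. Leaving out a thymic library moved the values of the T cell branch. The log2 fold change of Lat was -1.31 without ILTCkP replicate 1 and -0.80 without ILTCkP replicate 2. That of Plcg1 ran from -0.64 to 0.11 with 1 library left out. Without ILTCkP replicate 2 the log2 fold change of Syk was -8.07, since the remaining ILTCkP library had no Syk count. Lat2, Plcg2 and Lyn stayed higher in ILTCkP in every such fit.

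Other genes of the pathway were followed in 5 lists, chosen with earlier results of these data known. The list names are loose. Ptprc and Ptprj, listed as negative regulators, and Sos1 and Sos2, listed as downstream of the phospholipases, match theirs only in part. Of 7 receptor chains and ITAM adaptors, Fcer1g and Tyrobp rose and 0 fell. Fcer1g, which encodes FcRγ, had 183 and 220 CPM in ILTCkP, against 1.38 and 1.52 CPM in CD8SP (log2 fold change 7.12 ± 0.30 SE, edgeR adjusted p = 0.00201). Tyrobp, which encodes DAP12, had 17.5 and 20.1 CPM in ILTCkP, against 1.24 and 2.78 CPM in CD8SP (3.22 ± 0.51 SE, edgeR adjusted p = 0.0292). The remaining 5 chains, the CD3 chains among them, had negative fold changes without a call, and the median over the list was -0.12. Of the 11 other Src-family and Tec-family kinases, 7 were tested. Blk, a Src-family kinase of B cells, rose, with 59.1 and 19.2 CPM in ILTCkP against 0.310 and 0.759 CPM in CD8SP (6.17 ± 0.81 SE, edgeR adjusted p = 0.0167). Tec rose and Txk, a Tec-family kinase of T cells, fell, by edgeR adjusted p = 0.0432 and 0.0438. Without CD8SP replicate 1 these became 0.132 for Tec and 0.331 for Txk, and without CD8SP replicate 2 they became 0.258 for Tec and 0.373 for Txk. The log2 fold changes were 1.88 and 1.68 for Tec, against 1.77 with all libraries, and -1.12 and -1.15 for Txk, against -1.14.

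Among the 21 adaptors around LAT and SLP-76, 2 rose and 4 fell by edgeR and by limma-voom, against 4 up and 4 down by DESeq2, and the list's median by edgeR was 0.28. Clnk, a SLP-76 relative known from mast cells and natural killer cells, had 4.02 and 2.27 CPM in ILTCkP and 0 counts in both CD8SP libraries, at least 61.3-fold higher with 3 counts set over the CD8SP group. Sh3bp2, an adaptor that binds Syk-family kinases, rose with a log2 fold change of 1.40 ± 0.27 (SE; edgeR adjusted p = 0.0476). Grap2, which encodes the adaptor GADS that joins LAT to SLP-76, fell by 1.59 on the log2 scale (edgeR adjusted p = 0.0279), but had an adjusted p of 0.186 without CD8SP replicate 1 and 0.160 without CD8SP replicate 2, at log2 fold changes of -1.53 and -1.64. Themis, a T cell adaptor needed in thymic selection, had 16.2 and 39.2 CPM in ILTCkP, against 141 and 197 CPM in CD8SP (edgeR adjusted p = 0.0419). Sit1 and Fyb fell as well. These 4 are adaptors known from T cells, and each was lower in both ILTCkP libraries. Other adaptors of the list did not follow them. Trat1 and Lax1 were higher in both ILTCkP libraries without a call by edgeR, at log2 fold changes of 0.80 and 0.52 (adjusted p = 0.233 and 0.251). Vav1 overlapped, at 0.06. Over the list, 12 edgeR fold changes were positive and 9 negative.

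Of 16 negative regulators, edgeR called 2 higher and 0 lower, with a median of 0.57, against 6 up and 3 down by DESeq2 and 2 up and 2 down by limma-voom. Ubash3b, which encodes the phosphatase Sts-1 that acts on ZAP-70 and SYK, had 262 and 337 CPM in ILTCkP, against 23.7 and 25.5 CPM in CD8SP (log2 fold change 3.61 ± 0.25 SE, edgeR adjusted p = 0.00449). Its relative Ubash3a averaged 79.2 CPM in ILTCkP and 241 CPM in CD8SP without a call by edgeR (adjusted p = 0.0593), while DESeq2 (adjusted p = 0.000395) and limma-voom (adjusted p = 0.0331) called it lower. Ptprj, which encodes the receptor phosphatase CD148, had 268 counts in ILTCkP and 2 in CD8SP, a ratio of 140 with an exact 95% interval from 38.4 to 1162 for counting error alone. Of 16 genes listed as downstream of the phospholipases, edgeR called 0, with 3 at an unadjusted p under 0.05, Malt1, Prkcb and Sos1, all lower. DESeq2 called 2 of these 16, both lower, and limma-voom called 0.

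**Figure D2:**
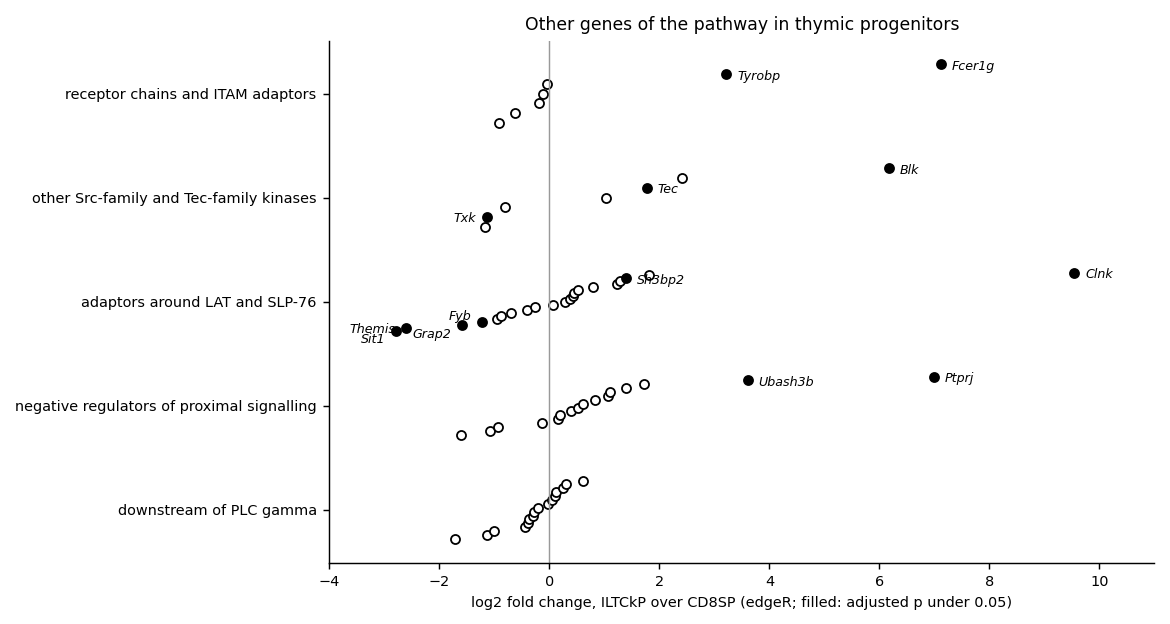
edgeR log2 fold changes of the tested pathway genes, ILTCkP over CD8SP, by list; filled points passed an adjusted p under 0.05 and are named. The called genes with positive values lie among the ITAM adaptors, kinases, adaptors and negative regulators, and 0 genes downstream of the phospholipases are filled.

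The ratio of paralogues within a library needs no scaling between libraries. Plcg2 counts came to 176% and 317% of Plcg1 counts in ILTCkP, against 4.90% and 7.80% in CD8SP. The phospholipase with more counts thus differed between the groups. Lat2 counts came to 33.1% and 39.9% of Lat counts in ILTCkP, against 0.151% and 0.134% in CD8SP, so Lat still had the more counts in ILTCkP. The log2 ratio was -1.46 ± 0.19 in ILTCkP and -9.46 ± 0.12 in CD8SP (SD, n = 2 each). Syk came to 0.00566% and 1.13% of Zap70 counts in ILTCkP (with 0.5 added to each count), against 0.747% and 0.405% in CD8SP. No shift toward Syk was seen in ILTCkP, whose libraries lay on either side of CD8SP.

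Per kb of exon, Plcg2 was at 32.9 and 35.0 CPM per kb in ILTCkP beside Plcg1 at 10.2 and 6.04 CPM per kb. In CD8SP, Plcg2 was at 0.770 and 1.46 CPM per kb beside Plcg1 at 8.64 and 10.3 CPM per kb. Lat2, at 44.8 and 37.6 CPM per kb in ILTCkP, stayed under Lat at 128 and 89.2 CPM per kb. Lck was the highest member in all 4 thymic libraries by this measure, with 843 and 624 CPM per kb in ILTCkP and 997 and 858 CPM per kb in CD8SP. Relative to Lck within the same library, Zap70 counts were 14.1% and 14.9% in ILTCkP against 6.88% and 8.55% in CD8SP. Lat counts were 14.4% and 13.5% of Lck counts in ILTCkP against 22.4% and 23.1% in CD8SP. These ratios to Lck were added after the values were seen, and for neither gene did the groups overlap.

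**Figure D3:**
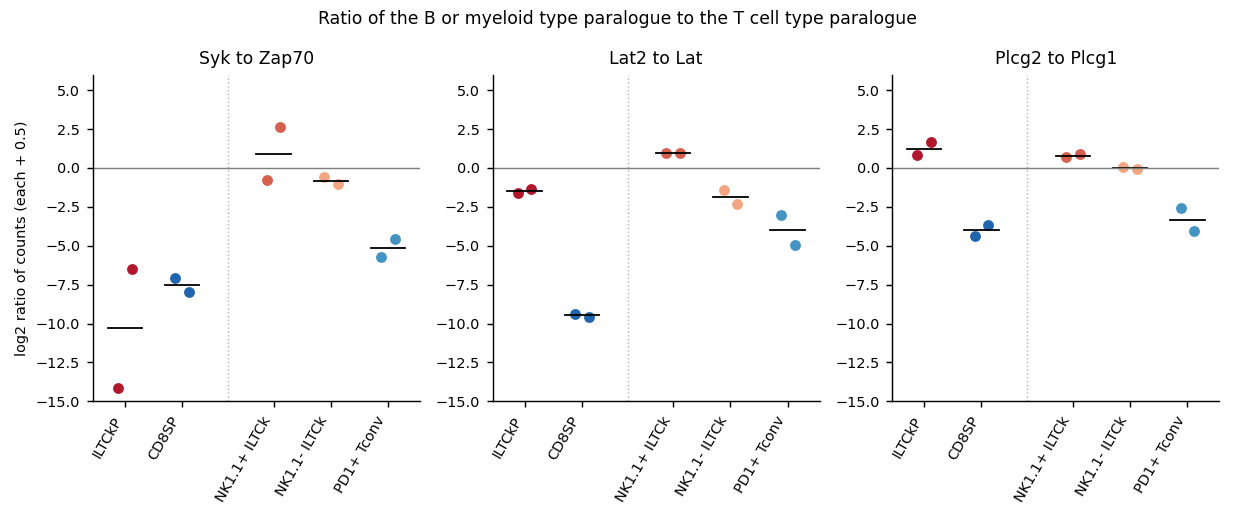
log2 ratio of counts of each B cell or myeloid type paralogue to its T cell type paralogue (0.5 added to each count), with 1 point per library and a bar at the group mean; values above 0 mean more counts of the B cell or myeloid type gene. Plcg2 to Plcg1 lies above 0 in ILTCkP and NK1.1+ ILTCk, and Lat2 to Lat lies above 0 in NK1.1+ ILTCk alone of the 5 groups. The part of other cells' RNA in the tumour ratios was not tested.

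In tumours, NK1.1+ ILTCk were set against PD1+ Tconv. The 4 genes of the B cell and myeloid branch were higher in both NK1.1+ ILTCk libraries than in either PD1+ Tconv library. Zap70, Lat, Plcg1, Lck and Fyn were lower in both, and Lcp2 overlapped. These 9 of 10 members compare with 41.5% of all tested genes whose libraries did not overlap, 20.7% higher and 20.8% lower. edgeR called 0 of 10 members and 0% of 18091 genes after adjustment, with 6 members and 14.3% of genes at an unadjusted p under 0.05. limma-voom called 0 members and 3 genes (0.0166%). DESeq2 called 4 members, Syk and Lyn higher and Lat and Fyn lower, with 3.67% of genes higher and 3.34% lower (7.01% in all). All 3 comparisons in the tumour table share libraries, and the 2 comparisons with PD1+ Tconv share both of its libraries.

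Syk had 44.7 and 128 CPM in NK1.1+ ILTCk, against 3.76 and 4.46 CPM in PD1+ Tconv. Its log2 fold change was 4.40 ± 0.76 (SE; edgeR adjusted p = 0.100, DESeq2 adjusted p = 2.98e-07). The NK1.1+ library with more Syk was the one with more macrophage transcripts, 18905 against 6806 CPM, and the part of macrophage RNA in the Syk difference was not tested. Csf1r differed in the same direction, with 690 and 1495 CPM in NK1.1+ ILTCk against 13.9 and 20.4 CPM in PD1+ Tconv. The log2 ratio of Syk to Csf1r was -3.75 ± 0.28 in NK1.1+ ILTCk, against -2.04 ± 0.21 in PD1+ Tconv (SD, n = 2 each), so Csf1r differed more than Syk did. This ratio was also added after the values were seen.

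Lyn had 206 and 172 CPM in NK1.1+ ILTCk, against 27.6 and 18.6 CPM in PD1+ Tconv. Both NK1.1+ libraries were high and near each other, and the log2 fold change was 3.03 ± 0.45 (SE; edgeR adjusted p = 0.0875, DESeq2 adjusted p = 1.18e-07). Plcg2 had 124 and 79.5 CPM in NK1.1+ ILTCk, against 40.9 and 5.03 CPM in PD1+ Tconv (log2 fold change 2.14 ± 0.89 SE, edgeR adjusted p = 0.342). Lat2 had 112 and 38.8 CPM in NK1.1+ ILTCk, against 38.6 and 10.1 CPM in PD1+ Tconv (1.62 ± 0.83 SE, edgeR adjusted p = 0.434). For Lat2 the lower NK1.1+ library all but met the higher PD1+ Tconv library. Within both groups, the library with the higher macrophage sum had the lower Lat2, Plcg2 and Lyn levels and the higher Syk level. B cell markers lay the same way round as Lat2, Plcg2 and Lyn, at 72.0 and 25.1 CPM in NK1.1+ ILTCk, against 41.3 and 5.35 CPM in PD1+ Tconv. Mast cell markers stood at 58.0 and 0.361 CPM in NK1.1+ ILTCk, against 0.382 and 0.486 CPM in PD1+ Tconv. The part of macrophages, dendritic cells, B cells or mast cells in these values was not tested.

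**Figure D4:**
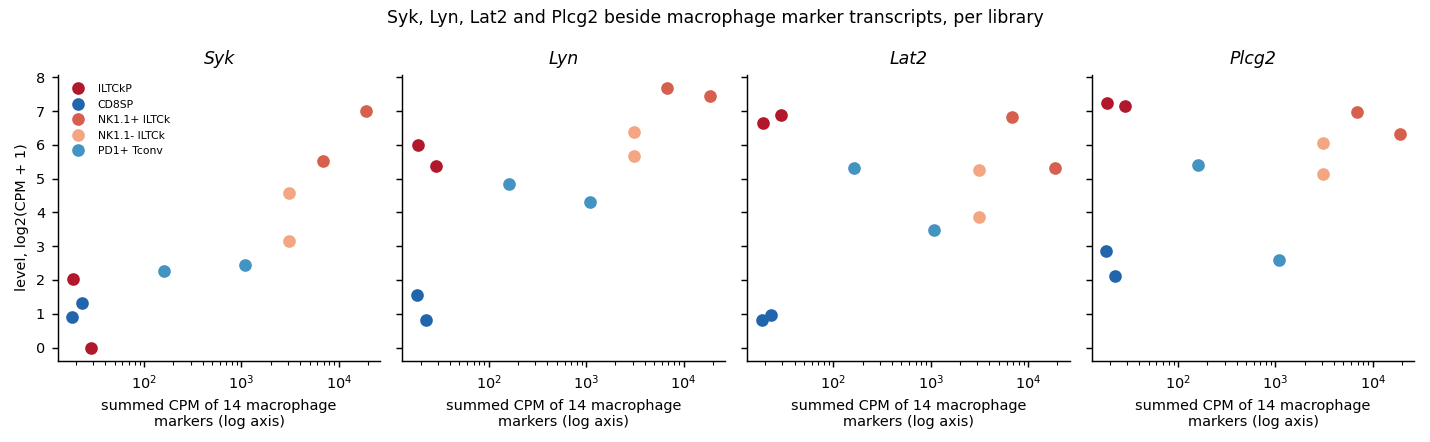
Level of Syk, Lyn, Lat2 and Plcg2 as log2(CPM + 1) against the summed CPM of 14 macrophage and monocyte markers on a log axis, 1 point per library. The 2 ILTCkP libraries have Lat2 and Plcg2 levels within or above the range of NK1.1+ ILTCk at macrophage sums of 28.7 and 18.7 CPM. Their Lyn levels, 40.0 and 63.1 CPM, lie below those of NK1.1+ ILTCk, 206 and 172 CPM. Syk is high in the libraries with the largest sums. The thymic and tumour tables were scaled separately, and the part of macrophage RNA in these levels was not tested.

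On the T cell side, Lat had 57.6 and 19.7 CPM in NK1.1+ ILTCk, against 310 and 316 CPM in PD1+ Tconv. The groups were well apart, with a log2 fold change of -3.02 ± 0.59 (SE; edgeR adjusted p = 0.117, DESeq2 adjusted p = 6.52e-05). Fyn had 123 and 40.1 CPM in NK1.1+ ILTCk, against 471 and 213 CPM in PD1+ Tconv (log2 fold change -2.07 ± 0.68 SE, edgeR adjusted p = 0.258). Zap70 had 78.2 and 20.9 CPM in NK1.1+ ILTCk, against 203 and 105 CPM in PD1+ Tconv (-1.64 ± 0.71 SE, edgeR adjusted p = 0.362). All 3 were lower in each NK1.1+ library. Plcg1 had 78.0 and 42.1 CPM in NK1.1+ ILTCk, against 248 and 85.7 CPM in PD1+ Tconv (-1.48 ± 0.62 SE, edgeR adjusted p = 0.345). Lck had 692 and 160 CPM in NK1.1+ ILTCk, against 1074 and 757 CPM in PD1+ Tconv (-1.10 ± 0.71 SE, edgeR adjusted p = 0.537). Lcp2, the scaffold used in both T cells and myeloid cells, had 195 and 117 CPM in NK1.1+ ILTCk, against 341 and 124 CPM in PD1+ Tconv, and overlapped. NK1.1+ ILTCk replicate 1 was the higher of its pair for each of these 6 genes, and it also had the higher T cell marker sum. The part of T cell RNA content in these differences was not tested. Without PD1+ Tconv replicate 2, 0 members and 0 genes were called as well, and the log2 fold changes were 4.49 for Syk, 2.75 for Lyn, 1.28 for Plcg2, 0.94 for Lat2, -3.03 for Lat, -2.56 for Fyn and -2.07 for Zap70.

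Within a library, Lat was also low relative to Lck, another gene of the T cell branch. Lat counts were 8.33% and 12.3% of Lck counts in NK1.1+ ILTCk, against 28.8% and 41.7% in PD1+ Tconv. The log2 difference was -1.78, without overlap. Zap70 counts were 11.3% and 13.1% of Lck counts in NK1.1+ ILTCk, against 18.9% and 13.8% in PD1+ Tconv, a log2 difference of -0.41 with values close to each other. Lat2 counts were 194% and 197% of Lat counts in NK1.1+ ILTCk, against 12.5% and 3.22% in PD1+ Tconv. NK1.1+ ILTCk was the only one of the 5 groups in which Lat2 exceeded Lat in both libraries, also per kb of exon, at 42.7 and 14.8 CPM per kb of Lat2 beside 20.8 and 7.11 CPM per kb of Lat. Plcg2 counts were 159% and 189% of Plcg1 counts in NK1.1+ ILTCk, against 16.5% and 5.91% in PD1+ Tconv. Syk counts were 57.2% and 611% of Zap70 counts in NK1.1+ ILTCk, against 1.86% and 4.29% in PD1+ Tconv. The Syk ratio thus spread widely between the NK1.1+ libraries, while those of Lat2 and Plcg2 were close. Macrophage markers summed to 6806 and 18905 CPM in NK1.1+ ILTCk, against 162 and 1085 CPM in PD1+ Tconv. T cell markers summed to 2311 and 497 CPM in NK1.1+ ILTCk, against 4430 and 2822 CPM in PD1+ Tconv. The part of other cells' RNA in these ratios was not tested.

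NK1.1- ILTCk had lower levels of 5 genes of the T cell branch than PD1+ Tconv in both libraries, and of the other branch Syk and Lyn were higher. edgeR called 0 members and 0% of genes, with 6 of 10 members and 11.9% of genes at an unadjusted p under 0.05. limma-voom called 0 genes, and DESeq2 called 3 members, Lyn higher and Zap70 and Lat lower, with 2.16% of genes higher and 1.75% lower (3.91% in all). Libraries did not overlap for 7 members, Syk and Lyn higher and Zap70, Lat, Plcg1, Lck and Fyn lower, where 45.8% of all genes did not overlap, 23.1% higher and 22.7% lower. Zap70 had 34.2 and 16.6 CPM in NK1.1- ILTCk, against 203 and 105 CPM in PD1+ Tconv (log2 fold change -2.60 ± 0.74 SE, edgeR adjusted p = 0.361). Lat had 97.9 and 65.9 CPM in NK1.1- ILTCk, against 310 and 316 CPM in PD1+ Tconv (-1.93 ± 0.56 SE, edgeR adjusted p = 0.361). Both genes were lower in each NK1.1- library than in either PD1+ Tconv library. Lck had 405 and 250 CPM in NK1.1- ILTCk, against 1074 and 757 CPM in PD1+ Tconv. Fyn had 99.4 and 58.0 CPM in NK1.1- ILTCk, against 471 and 213 CPM in PD1+ Tconv. Plcg1 had 62.0 and 35.2 CPM in NK1.1- ILTCk, against 248 and 85.7 CPM in PD1+ Tconv. These 3 were lower as well, at edgeR adjusted p = 0.453 for Lck, 0.361 for Fyn and 0.380 for Plcg1.

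Lyn had 83.0 and 50.4 CPM in NK1.1- ILTCk, against 27.6 and 18.6 CPM in PD1+ Tconv (log2 fold change 1.53 ± 0.42 SE, edgeR adjusted p = 0.361). Syk had 22.9 and 7.98 CPM in NK1.1- ILTCk, against 3.76 and 4.46 CPM in PD1+ Tconv (1.92 ± 0.69 SE, edgeR adjusted p = 0.386). Both were higher in each NK1.1- library, beside macrophage sums of 3104 and 3101 CPM, and the part of macrophage RNA was not tested. Lat2 had 37.3 and 13.5 CPM in NK1.1- ILTCk, against 38.6 and 10.1 CPM in PD1+ Tconv. Plcg2 had 64.8 and 34.2 CPM in NK1.1- ILTCk, against 40.9 and 5.03 CPM in PD1+ Tconv. Lcp2 had 127 and 74.7 CPM in NK1.1- ILTCk, against 341 and 124 CPM in PD1+ Tconv. Values of these 3 overlapped between the groups. Without PD1+ Tconv replicate 2 the Lat2 fold change of 0.06 (log2) became -0.61 and that of Plcg2 became 0.27, while Syk was at 2.04, Lyn at 1.27, Zap70 at -3.01 and Lat at -1.93. Lat counts were 24.2% and 26.4% of Lck counts in NK1.1- ILTCk, against 28.8% and 41.7% in PD1+ Tconv, a log2 difference of -0.46. Zap70 counts were 8.46% and 6.63% of Lck counts in NK1.1- ILTCk, against 18.9% and 13.8% in PD1+ Tconv. Their log2 difference was -1.11, and neither ratio overlapped.

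NK1.1+ against NK1.1- ILTCk compared the subsets by the killer receptor that names them. Syk, Lat2, Plcg2 and Lyn were higher and Lat was lower in both NK1.1+ libraries, and the other 5 members overlapped. These 5 non-overlapping members compare with 37.5% of all genes, 18.6% higher and 18.9% lower. edgeR called 0 members and 0% of genes, with 2 of 10 members, Syk and Lyn, and 3.94% of genes at an unadjusted p under 0.05. limma-voom called 0 genes, and DESeq2 called 0 members and 0.315% of genes, 0.199% higher and 0.116% lower. The log2 fold changes were 2.48 ± 0.69 for Syk, 1.57 ± 0.83 for Lat2, 1.51 ± 0.42 for Lyn, 1.04 ± 0.86 for Plcg2 and -1.08 ± 0.55 for Lat (SE). All had an edgeR adjusted p of 0.9998. Macrophage sums were 6806 and 18905 CPM in NK1.1+ ILTCk, against 3104 and 3101 CPM in NK1.1- ILTCk. Without NK1.1+ ILTCk replicate 1 the fold changes of Zap70, Plcg1, Lck and Fyn turned negative, at -0.28, -0.21, -1.03 and -0.98. Without PD1+ Tconv replicate 2, whose gland transcripts enter the shared estimate of spread, 0 members were called as well.

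Lat to Lck separated the ILTCk subsets, with 8.33% and 12.3% in NK1.1+ ILTCk against 24.2% and 26.4% in NK1.1- ILTCk, a log2 difference of -1.32. Lat2 to Lat did so too, with 194% and 197% in NK1.1+ ILTCk against 38.1% and 20.4% in NK1.1- ILTCk. Plcg2 to Plcg1 was 159% and 189% in NK1.1+ ILTCk against 105% and 97.2% in NK1.1- ILTCk. None of these 3 ratios overlapped between the subsets. Zap70 to Lck did not overlap either, at 11.3% and 13.1% in NK1.1+ ILTCk against 8.46% and 6.63% in NK1.1- ILTCk. Its log2 difference was 0.70, higher in NK1.1+ ILTCk. Syk to Zap70 was 57.2% and 611% in NK1.1+ ILTCk against 67.0% and 48.3% in NK1.1- ILTCk and overlapped. The macrophage and T cell marker sums of these libraries are given above, and the part of other cells' RNA in the ratios was not tested.

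**Figure D5:**
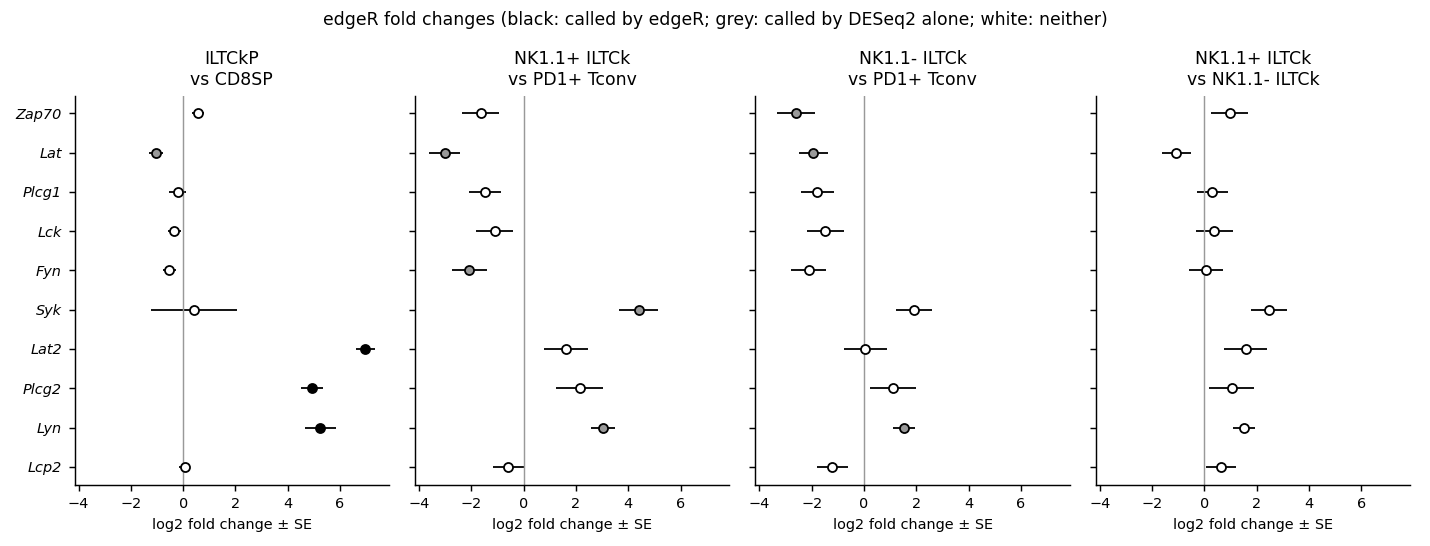
edgeR log2 fold changes ± SE of the 10 members in the 4 comparisons; black points passed edgeR at an adjusted p under 0.05, grey points passed DESeq2 alone and white points neither. Lat2, Plcg2 and Lyn are black in the thymic comparison, and 0 points are black in the tumour comparisons.

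Among other genes of the pathway, edgeR called none in the tumour comparisons, as for all genes. DESeq2 called 2 of 7 receptor chains and ITAM adaptors in NK1.1+ ILTCk against PD1+ Tconv, Fcer1g and Tyrobp, both higher. Fcer1g had 1446 and 1229 CPM in NK1.1+ ILTCk, against 184 and 81.1 CPM in PD1+ Tconv. Among the kinases, Btk, the Tec-family kinase of B cells and myeloid cells, had 16.2 and 26.9 CPM in NK1.1+ ILTCk, against 0.764 and 1.62 CPM in PD1+ Tconv, and DESeq2 called it higher. Of 21 adaptors 3 were higher, Themis2, Skap2 and Blnk, and 5 were lower, Themis, Fyb, Sit1, Grap and Grap2. Themis had 4.74 and 0.948 CPM in NK1.1+ ILTCk, against 238 and 82.4 CPM in PD1+ Tconv, and its relative Themis2 had 77.8 and 151 CPM against 14.4 and 6.32 CPM. The T cell gene was thus low and its B cell and myeloid relative high in the same libraries. Macrophage markers summed to 6806 and 18905 CPM in these NK1.1+ libraries, against 162 and 1085 CPM in PD1+ Tconv. T cell markers summed to 2311 and 497 CPM, against 4430 and 2822 CPM. The part of other cells' RNA in the tumour values of Fcer1g, Tyrobp, Btk, Themis2 and the other pathway genes was not tested. Of 16 negative regulators 0 were higher and 1, Ubash3a, was lower, and of 16 genes downstream of the phospholipases 2 were higher and 4 lower. Median edgeR log2 fold changes over the 5 lists were -0.80, 0.15, -0.23, -0.34 and -1.25 in that order, against -0.04 over all genes.

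In NK1.1- ILTCk against PD1+ Tconv, DESeq2 called 0 receptor chains and ITAM adaptors and 1 kinase, Btk, higher. It called 3 adaptors lower, Fyb, Themis and Grap, with 1 negative regulator lower, Cblb, and 2 downstream genes lower, Itpkb and Rasgrp2. All 16 negative regulators had negative edgeR fold changes there, with a median of -1.17 (log2) against -0.04 over all genes. The median was -1.34 for receptor chains and ITAM adaptors, 0.51 for kinases, -0.54 for adaptors and -1.16 for downstream genes. For the 10 members it was -1.34. Summed T cell markers were lower too, at 1355 and 1032 CPM in NK1.1- ILTCk against 4430 and 2822 CPM in PD1+ Tconv. The part of T cell RNA content in these values was not tested. In NK1.1+ against NK1.1- ILTCk, DESeq2 called Fcer1g, Tyrobp and Themis2 higher and Themis lower. Themis had 4.74 and 0.948 CPM in NK1.1+ ILTCk, against 19.8 and 34.7 CPM in NK1.1- ILTCk.

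Blk was low throughout the tumour table. It had at most 2.45 CPM in each of its 6 libraries, where ILTCkP had 59.1 and 19.2 CPM, and levels across the tables were not tested.

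Across the 5 groups, Lat2 and Plcg2 had their highest means in ILTCkP, Syk and Lyn in NK1.1+ ILTCk, Zap70 and Lcp2 in ILTCkP, Plcg1 and Fyn in PD1+ Tconv, and Lat and Lck in CD8SP. Mean levels of Lat2 ran 108 CPM in ILTCkP, 75.3 CPM in NK1.1+ ILTCk, 25.4 CPM in NK1.1- ILTCk, 24.4 CPM in PD1+ Tconv and 0.862 CPM in CD8SP. In that order ILTCkP and NK1.1+ ILTCk overlapped, as did NK1.1- ILTCk and PD1+ Tconv. Mean levels of Plcg2 ran 146, 102, 49.5, 23.0 and 4.79 CPM over the same order of groups, and only the last 3 groups overlapped with a neighbour. Lyn ran 189 CPM in NK1.1+ ILTCk, 66.7 CPM in NK1.1- ILTCk, 51.6 CPM in ILTCkP, 23.1 CPM in PD1+ Tconv and 1.36 CPM in CD8SP, with an overlap between NK1.1- ILTCk and ILTCkP. Syk ran 86.4 CPM in NK1.1+ ILTCk, 15.4 CPM in NK1.1- ILTCk, 4.11 CPM in PD1+ Tconv, 1.53 CPM in ILTCkP and 1.17 CPM in CD8SP, and the thymic groups overlapped. The tables were scaled separately, so these orders across them are descriptions.

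The genes most alike in pattern to 6 paralogues were found by the root mean square difference of centred log2(CPM + 1) over the 10 libraries, among 9142 genes with at least 10 CPM on average. For Zap70 they were Kif21b (0.21), Pglyrp2 (0.27) and Cd3e (0.32). For Lat they were Grap2 (0.32), Nxpe3 (0.41) and Cd2 (0.45). For Plcg1 they were Atp10a (0.23), Fam102a (0.24) and Zfp652 (0.30). The nearest genes to Syk were Fgd2 (0.42), Stom (0.48) and Scamp5 (0.50), and to Lat2 they were Myo1e (0.54), Klrb1a (0.58) and Srgap3 (0.70). For Plcg2 the nearest of all 9142 genes was Lat2 itself, at 0.76, before P2rx7 at 0.78 and Capn5 at 0.78. The 10 libraries share groups, so this likeness is a description.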

How the data were processed

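Bulk RNA sequencing was deposited as whole-number read counts per gene in 2 tables, 1 of 4 thymic and 1 of 6 tumour libraries, described as raw counts per the labels. Per the submitters' processing notes the build was mm10 and the authors used DESeq; the aligner, counter, annotation and strand setting are not stated in these sources. The 4 single-cell libraries were not analysed here.

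Each table was filtered with filterByExpr, scaled by TMM and tested with edgeR 4.0.16 (glmQLFit with robust estimation, glmQLFTest, Benjamini-Hochberg adjustment over all tested genes, threshold 0.05). The 3 tumour comparisons shared 1 fit of 6 libraries. DESeq2 1.42.0, limma-voom (limma 3.58.1), other scalings and filters, the replicate number as a block and each library left out were the alternatives. The fits were tested on simulated data. Ratios added 0.5 to each count. Coordinates and exon lengths came from GENCODE M21 on GRCm38.

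The members and lists were chosen with earlier results of these data known. Named genes were the members, 5 label genes, up to 3 genes per list with the smallest p, and the 3 genes most alike to each paralogue; others were named after their values were seen. Intervals and floors cover counting error only, with library totals of 16530085 to 32097301 counts.

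Some pathway genes are not reported here.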

Additional observations from a re-analysis of the deposited data

Results flagged for a closer look

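Zap70 lay in opposite directions in every library of the thymic and of the tumour comparisons with conventional T cells. It was higher in both ILTCkP libraries than in either CD8SP library (log2 fold change 0.58), and lower in both libraries of each ILTCk group than in either PD1+ Tconv library (log2 fold changes of -1.64 for NK1.1+ ILTCk, and of -2.60 for NK1.1- ILTCk). The thymic fold change exceeded the tumour one by 2.21 for NK1.1+ ILTCk and by 3.18 for NK1.1- ILTCk. The difference was not tested, since the tables share no library, and 0 of these 3 fold changes passed edgeR at an adjusted p under 0.05. The summed T cell markers differed in the same direction as Zap70 in the tumour comparisons, at 2311 and 497 CPM in NK1.1+ ILTCk, with 1355 and 1032 CPM for NK1.1- ILTCk, against 4430 and 2822 CPM in PD1+ Tconv. In the thymus they differed the other way, at 6213 and 5957 CPM in ILTCkP against 8842 and 8133 CPM in CD8SP. Their part in the Zap70 values was not tested.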

How the results depend on the processing

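Over 479 alternative values for the fold changes of the 10 members, 425 kept direction and side of the threshold, 37 crossed to a call, 17 turned direction and 0 lost a call. Scalings moved the median of all genes by at most 0.10 (log2). With 2 libraries a group, small differences could not be called, and in the tumour comparisons edgeR did not call large ones either. Pdcd1 had a log2 fold change of -6.67 in NK1.1+ ILTCk against PD1+ Tconv, at an edgeR adjusted p of 0.0725. A lone library left in a group was assumed to vary like the others.

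For ILTCkP against CD8SP, 689 genes were called, against 1997 with DESeq2, 2535 without a filter and 592 to 7017 with 1 library left out, and 3 members, against 3 to 6 with 1 left out. For NK1.1+ ILTCk against PD1+ Tconv, 0 became 4 members and 1269 genes with DESeq2, 7 and 1249 without a filter, 3 genes with limma-voom, and 0 to 35 genes with 1 library left out. For NK1.1- ILTCk against PD1+ Tconv, 0 became 3 members and 708 genes with DESeq2, and 5 and 799 without a filter. For NK1.1+ against NK1.1- ILTCk, 0 became 57 genes with DESeq2, and 1 member and 167 genes without a filter. The cause of these changes was not tested.

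The replicate numbers are not tied to animals or batches, and libraries of like number deviated together with correlations of 0.33 in the thymic and 0.41 to 0.49 in the tumour table, across genes. With the replicate block, 4 members (Lat at an adjusted p of 0.00529 besides Lat2, Plcg2 and Lyn) and 2212 genes were called for ILTCkP against CD8SP. For NK1.1+ ILTCk against PD1+ Tconv it called 7 members (Syk, Lyn, Lat2, Plcg2, Zap70, Lat and Fyn) and 755 genes, and for NK1.1- ILTCk against PD1+ Tconv 2 members (Zap70 and Fyn) and 298 genes. The block turned Syk in ILTCkP against CD8SP to -1.16 and Fyn in NK1.1+ against NK1.1- ILTCk to -0.11.

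Other log2 fold changes turned direction too. For ILTCkP against CD8SP, Syk became -1.92 with limma-voom. With 1 library left out, the values there ran from -8.07 to 1.40 for Syk, -0.64 to 0.11 for Plcg1 and -0.022 to 0.13 for Lcp2, and the log2 ratio of Syk to Zap70 differed by -6.60 to 1.04. For NK1.1+ ILTCk against PD1+ Tconv, Lcp2 ran from -1.16 to 0.35. For NK1.1- ILTCk against PD1+ Tconv, Lat2 ran from -0.86 to 1.34, with -0.61 without PD1+ Tconv replicate 2, and Klrb1c from -0.90 to 3.19. For NK1.1+ against NK1.1- ILTCk, Fyn became -0.025 with upper-quartile scaling and -0.12 with limma-voom, which turned Cd8a to -0.034. There, with 1 library left out, Fyn ran from -0.98 to 0.64, Zap70 from -0.28 to 1.62, Plcg1 from -0.21 to 0.77, Lck from -1.03 to 1.08, Cd3e from -0.72 to 1.76, Cd8a from -1.38 to 1.21 and Rasgrp4 from -0.15 to 4.78.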
